A study of Homo sapiens with 9 samples.

Results

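ACSS2, FASN, SCD, FADS1 and LPCAT3 were followed as a set of 5 genes that make, desaturate and remodel fatty acids, out of 14884 named genes on the arrays. They were taken by gene symbol from the platform's probe annotation, with every probeset of each gene. This gave 6 of the 16098 named probesets, since SCD had 2 and the other genes 1 each. The cells were SMS-KCNR, an established human neuroblastoma line grown in serum-containing medium, and total RNA was measured after 30 hours on Affymetrix whole-transcript arrays. There were 3 groups of 3 arrays, all from this 1 line: cells given 5 µM simvastatin together with 2 mM mevalonate, cells given 5 µM simvastatin alone, and cells given the solvent DMSO. The series text describes the samples as independent without naming cultures or days, so p-values measure only the spread between these samples, which may be technical.

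Cells build fatty acids from acetyl-CoA in the cytosol, lengthen and desaturate them, and then place them in membrane phospholipids and storage lipids. Much of this machinery, like the enzymes of cholesterol synthesis, is switched on by SREBP transcription factors, which are released when sterols run low, while liver X receptors (LXR) respond to oxysterols and activate a partly separate set of lipid genes. Simvastatin blocks HMG-CoA reductase, the enzyme that makes mevalonate, and added mevalonate enters the pathway below that block.

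Deposited values were log2 signals with array medians from 5.17 to 5.21, and 0 arrays were duplicates of another. Across the 14884 genes, arrays correlated at r = 0.994 to 0.996 within groups and at r = 0.99 to 0.996 between groups. Of 16 noradrenergic neuroblastoma markers, 12 were measured and all 12 lay above the median of all probesets (5.19), from 7.55 to 10.8 for HAND2. Markers of other cells were dimmer or fewer (above the median were 3 of 4 Schwann or glial, 3 of 6 adipocyte or hepatocyte, 0 of 1 blood and 0 of 2 endothelial markers). The brightest Schwann or glial marker was SOX10 at 5.8, the brightest adipocyte or hepatocyte marker TTR at 5.78, and CD14 (blood, 4.94) and PECAM1 (endothelial, 4.68) lay below it. Mesenchymal markers were present, with 6 of 6 measured genes above the median, SNAI2 brightest at 10.92. Of these, SNAI2 rose and FN1 and TWIST1 fell with simvastatin, and FN1 and TWIST1 rose when mevalonate was added, while the list's mean log2 level per array was 7.61 to 7.67 with simvastatin plus mevalonate, 7.51 to 7.6 with simvastatin and 7.62 to 7.67 with DMSO. The noradrenergic markers moved with the groups too: 8 of 12 fell with simvastatin (7.38% of all genes fell). When mevalonate was added, 7 of these 12 markers rose (5.31% of all genes rose). The mean log2 level of the 12 per array was 9.48 to 9.56 with simvastatin plus mevalonate, 9.23 to 9.26 with simvastatin and 9.59 to 9.6 with DMSO. The part of these shifts in the results below was not tested. In bulk RNA, fewer cells of a type and less RNA per cell cannot be told apart.

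Among the 5 genes, simvastatin raised the 4 for making and desaturating fatty acids and lowered LPCAT3, the remodelling enzyme of this set. ACSS2 was 2.68-fold higher in simvastatin-treated cells than in DMSO-treated cells, FASN 1.79-fold, FADS1 1.41-fold and SCD 1.4-fold, while LPCAT3 was 1.34-fold lower. With mevalonate added, all 5 moved back towards the DMSO level, each past the threshold. A gene is called changed where limma's adjusted p (Benjamini-Hochberg over all 14884 genes) was under 0.05. Across all genes 13.4% passed in the comparison of simvastatin with DMSO, 5.98% higher and 7.38% lower, against 4 of the 5 genes higher and 1 lower. The 5 genes were chosen with earlier results of these data known, so such counts beside all genes are a description.

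ACSS2 encodes the acetyl-CoA synthetase of cytosol and nucleus, which turns acetate into acetyl-CoA. Its log2 signals were 7.53, 7.47 and 7.44 in the simvastatin arrays, against 5.97, 5.94 and 6.25 in the DMSO arrays. Every simvastatin array lay at least 1.19 above every DMSO array. The log2 change was 1.42 ± 0.11 (SE; 95% interval 1.17 to 1.68; limma adjusted p = 0.000103), the 5th largest rise of any named gene. The DMSO arrays of this gene spread more (SD 0.17, n = 3) than its simvastatin arrays (SD 0.048, n = 3).

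FASN encodes fatty acid synthase, the multi-domain enzyme that builds palmitate from acetyl- and malonyl-CoA. Its log2 signals were 10.05, 10.02 and 10.09 with simvastatin, against 9.13, 9.22 and 9.29 with DMSO. The groups lay 0.73 apart at their nearest arrays. The log2 change was 0.84 ± 0.05 (SE; 95% interval 0.72 to 0.97; limma adjusted p = 3.97e-05), the 36th largest rise. HMGCS1, an enzyme of mevalonate synthesis that statins are known to induce, had a log2 change of 1.66 ± 0.05 (SE; limma adjusted p = 3.08e-06) in the same fit. With simvastatin plus mevalonate HMGCS1 changed by -1.06 relative to simvastatin (limma adjusted p = 1.31e-05).

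The desaturases changed by nearly equal amounts. SCD, the stearoyl-CoA desaturase that puts the first double bond into saturated acyl chains, had log2 signals of 11.88, 11.87 and 11.95 with simvastatin, against 11.38, 11.45 and 11.41 with DMSO. FADS1, the delta-5 desaturase of polyunsaturated fatty acid synthesis, had 8.33, 8.46 and 8.5 with simvastatin, against 7.93, 7.94 and 7.95 with DMSO. In both genes the lowest simvastatin array stood above the highest DMSO array, by 0.42 for SCD and 0.38 for FADS1. The log2 change of SCD was 0.49 ± 0.04 (SE; limma adjusted p = 0.000134) and that of FADS1 was 0.49 ± 0.05 (SE; limma adjusted p = 0.000396). Their centred profiles over the 9 arrays differed by a root mean square of 0.049 on the log2 scale, the closest of any pair among the 5 genes, against 0.843 for ACSS2 and LPCAT3.

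The remaining SCD probeset was dim and less precise. Its log2 signals were 5.97, 5.8 and 5.77 with simvastatin, against 5.7, 5.23 and 5.48 with DMSO, near the median of all probesets. The groups were separated, but the DMSO arrays ran over a wide range. In a fit of all 53617 probesets its log2 change was 0.37 ± 0.12 (SE; limma adjusted p = 0.15), while the bright probeset kept 0.49 (adjusted p = 0.00127). The direction was the same for both, and the dim one did not pass.

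LPCAT3 went the other way. It encodes a lysophospholipid acyltransferase that puts polyunsaturated chains into phosphatidylcholine and is known as an LXR target. Its log2 signals were 7.45, 7.41 and 7.45 with simvastatin, against 7.89, 7.86 and 7.81 with DMSO, so that every simvastatin array lay below every DMSO array. The log2 change was -0.42 ± 0.04 (SE; 95% interval -0.52 to -0.32; limma adjusted p = 0.000475). All 5 genes thus had groups that did not overlap, which held for 28.6% of all genes in this comparison (13.9% higher, 14.7% lower). Exact two-sided permutation tests over 3 against 3 arrays gave 0.1 for each gene, the smallest value this design allows.

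**Figure D1:**
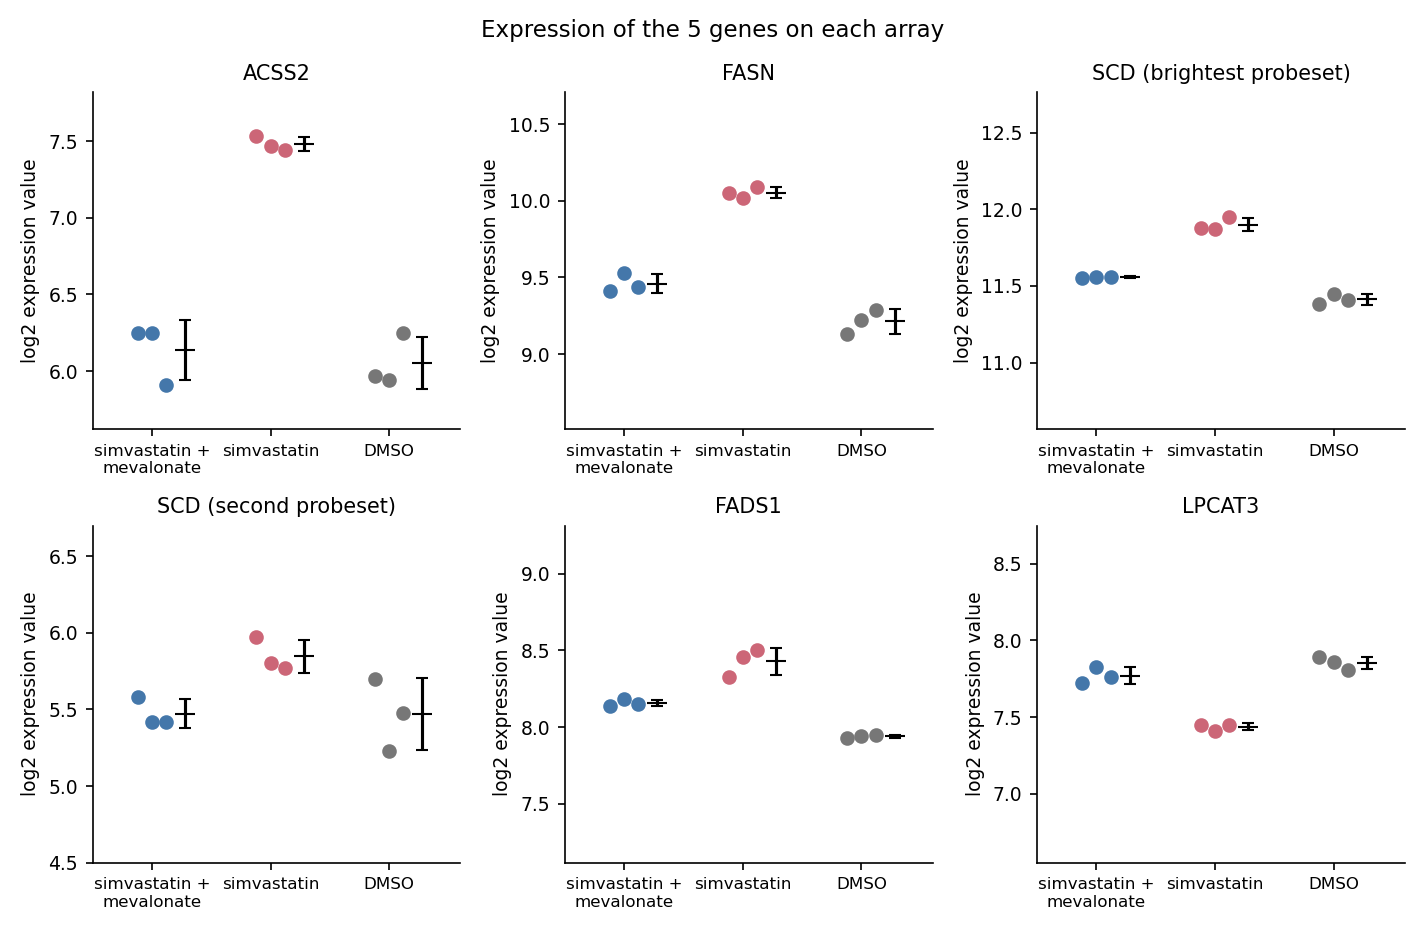
Log2 signal of each probeset of the 5 genes, 1 panel per probeset, with the groups along the horizontal axis and the dim SCD probeset as the second. Points are the 3 arrays of a group, and the bar beside them is the mean ± SD. The simvastatin arrays stand above the DMSO arrays for ACSS2, FASN, SCD and FADS1 and below them for LPCAT3, and the arrays with added mevalonate lie nearer to DMSO.

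Promoter windows of the 2 genes with the closest profiles, SCD and FADS1, and of LPCAT3, the gene that fell, were read from RefSeq (GRCh38.p14). Each is 300 bases long, holds the start site near its end and is written 5′ to 3′ on the gene's strand. Capitals mark matches, on either strand, to CCAAT (the NF-Y box) and to GGGCGG (the GC box), 2 boxes known to sit beside SREBP sites in sterol-regulated promoters. SCD is at chr10:100346983-100347282 on the plus strand, FADS1 at chr11:61816954-61817253 on the minus strand and LPCAT3 at chr12:7018427-7018726 on the minus strand.
SCD: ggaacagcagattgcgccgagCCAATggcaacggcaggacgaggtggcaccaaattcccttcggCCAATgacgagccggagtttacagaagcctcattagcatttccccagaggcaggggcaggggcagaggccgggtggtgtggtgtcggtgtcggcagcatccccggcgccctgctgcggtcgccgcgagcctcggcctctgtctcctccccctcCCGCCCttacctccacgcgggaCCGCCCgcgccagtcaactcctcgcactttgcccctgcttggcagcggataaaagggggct
FADS1: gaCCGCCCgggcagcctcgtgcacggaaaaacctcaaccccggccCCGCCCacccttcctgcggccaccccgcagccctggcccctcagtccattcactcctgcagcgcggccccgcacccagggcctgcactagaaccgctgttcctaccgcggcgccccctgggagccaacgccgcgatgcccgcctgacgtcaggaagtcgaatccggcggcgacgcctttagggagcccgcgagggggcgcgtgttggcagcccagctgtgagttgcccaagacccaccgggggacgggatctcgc
LPCAT3: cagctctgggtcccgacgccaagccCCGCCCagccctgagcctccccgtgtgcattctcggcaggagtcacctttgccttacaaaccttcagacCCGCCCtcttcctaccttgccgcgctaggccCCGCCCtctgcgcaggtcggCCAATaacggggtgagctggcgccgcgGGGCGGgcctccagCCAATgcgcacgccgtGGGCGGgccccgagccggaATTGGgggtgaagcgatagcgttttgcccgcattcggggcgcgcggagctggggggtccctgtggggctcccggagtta
SCD held 2 matches to CCAAT and 2 to GGGCGG. FADS1 held 2 to GGGCGG and none to CCAAT. LPCAT3 held 3 and 5, the most of the 5 windows for these genes. ACSS2 had a window at each of 2 start sites, chr20:34874739-34875038 and chr20:34876362-34876661, both on the plus strand, and FASN was not matched in the promoter table. Over all 35116 windows, CCAAT occurred in 34.6% and GGGCGG in 45%, against 3 and 5 of the 5 windows of these genes. Neither the sterol regulatory element searched as TCACNCCAC (1.13% of all windows), nor the E-box form searched as TCACNTGA (3.79%), nor the LXR DR4 element (0.0199%) had a match in any of the 5. In these windows no match overlapped another, and a missing match says only that those letters are not in these windows.

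Adding mevalonate to simvastatin lowered the 4 genes that simvastatin had raised and raised LPCAT3. In this comparison 11% of all genes passed, 5.31% higher and 5.72% lower, and groups did not overlap for 27.3% (13.6% higher, 13.7% lower). Both comparisons use the same 3 simvastatin arrays, so they share their chance values.

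ACSS2 had log2 signals of 6.25, 6.25 and 5.91 with simvastatin plus mevalonate, against 7.53, 7.47 and 7.44 with simvastatin. The change was -1.34 ± 0.11 (SE; 95% interval -1.6 to -1.09; limma adjusted p = 0.000175), a 2.54-fold lower level. FASN had 9.41, 9.53 and 9.44 with simvastatin plus mevalonate, against 10.05, 10.02 and 10.09 with simvastatin. For both genes every array with mevalonate lay below every array with simvastatin alone. The FASN log2 change was -0.59 ± 0.05 (SE; 95% interval -0.72 to -0.47; limma adjusted p = 0.000317).

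SCD had log2 signals of 11.55, 11.56 and 11.56 with simvastatin plus mevalonate, against 11.88, 11.87 and 11.95 with simvastatin. FADS1 had 8.14, 8.18 and 8.15 with simvastatin plus mevalonate, against 8.33, 8.46 and 8.5 with simvastatin. The mevalonate arrays of both desaturases were tightly grouped and below all simvastatin arrays. SCD changed by -0.34 ± 0.04 (SE; limma adjusted p = 0.00101) and FADS1 by -0.28 ± 0.05 (SE; limma adjusted p = 0.00893). The dim SCD probeset had 5.58, 5.42 and 5.42 with simvastatin plus mevalonate, all below the simvastatin arrays, and its change of -0.37 ± 0.12 did not pass in the fit of all probesets (SE; limma adjusted p = 0.171).

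LPCAT3 had log2 signals of 7.72, 7.83 and 7.76 with simvastatin plus mevalonate, against 7.45, 7.41 and 7.45 with simvastatin. Every mevalonate array was higher, by at least 0.27. The change was 0.33 ± 0.04 (SE; 95% interval 0.23 to 0.43; limma adjusted p = 0.00186), a 1.26-fold higher level.

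Between simvastatin plus mevalonate and DMSO none of the 5 genes passed the threshold in the main fit, where 11 of 14884 genes did (0.0739%, with 0.0336% higher and 0.0403% lower). HMGCS1 was among the 11, at 0.6 ± 0.05 higher (SE; limma adjusted p = 0.0129), a call lost without any 1 DMSO array or mevalonate replicate 1 (adjusted p 0.051 to 0.0795). The count of 11 was itself 0 when any 1 of those 4 arrays was left out, 2 without mevalonate replicate 2 and 3 without mevalonate replicate 3. ACSS2 differed by 0.08 ± 0.11 (SE; 95% interval -0.17 to 0.34; limma adjusted p = 0.827), and its groups overlapped. LPCAT3 differed by -0.08 ± 0.04 (SE; 95% interval -0.18 to 0.02; limma adjusted p = 0.545), and its groups overlapped as well. FASN, SCD and FADS1 kept a gap: with mevalonate every array stayed above every DMSO array, by 0.12 for FASN, 0.1 for SCD and 0.19 for FADS1. Groups without overlap occurred for 16.5% of all genes in this comparison, 7.24% higher and 9.22% lower.

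FASN was 0.25 ± 0.05 higher with simvastatin plus mevalonate than with DMSO (SE; 95% interval 0.12 to 0.37; limma adjusted p = 0.154). FADS1 was 0.22 ± 0.05 higher (SE; 95% interval 0.1 to 0.33; limma adjusted p = 0.161). SCD was 0.14 ± 0.04 higher (SE; 95% interval 0.05 to 0.24; limma adjusted p = 0.265). These differences were past the threshold when the variance was modelled with a trend and robustly, with limma adjusted p of 0.02 for FASN, 0.0396 for FADS1 and 0.0167 for SCD. The dim SCD probeset differed by 0 ± 0.12 (SE; limma adjusted p = 0.998). As a share of the simvastatin change, 5.76% of the log2 change remained for ACSS2, 19.9% for LPCAT3, 29.4% for SCD, 29.5% for FASN and 44% for FADS1. With 1 array left out, the ACSS2 share ran from 1.73% (without mevalonate replicate 1) to 13.8% (without mevalonate replicate 3). It was 1.8% without mevalonate replicate 2, 2.87% without DMSO replicate 1, 1.9% without DMSO replicate 2 and 11.9% without DMSO replicate 3. FADS1 ran from 39.9% to 47.3%. The differences between these shares were not tested.

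**Figure D2:**
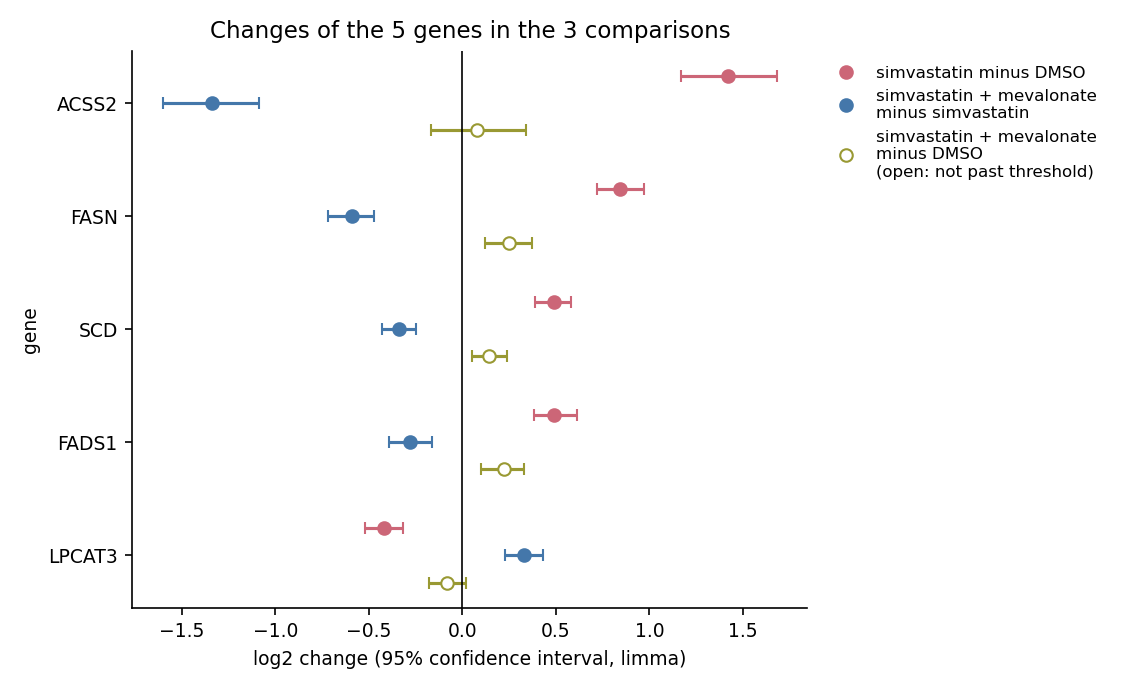
Log2 change of each gene in the 3 comparisons, with limma's 95% confidence interval. Filled points passed the threshold and open points did not. Simvastatin against DMSO runs from 1.42 for ACSS2 to -0.42 for LPCAT3, and the comparison with added mevalonate lies on the other side of 0 for each gene.

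The genes with the most similar values were found by the root mean square difference of centred log2 values over the 9 arrays, 3 for each gene, leaving out 1731 genes whose symbols mark uncharacterised loci, microRNAs or other non-coding RNA classes. For ACSS2 they were LONRF2 (0.158), PTCHD1 (0.193) and VGF (0.205). FASN lay nearest to AARS1 (0.058), ASS1 (0.078) and SARS1 (0.08). AARS1 and SARS1 encode cytosolic aminoacyl-tRNA synthetases, and ASS1 an enzyme of arginine synthesis. The nearest gene to SCD was ACACA (0.041), acetyl-CoA carboxylase, which makes malonyl-CoA for FASN, followed by ANKRD11 and RPF2 (0.044 each). FADS1 was nearest to IDI1 (0.04), an isomerase of the mevalonate pathway, then to EID3 (0.042) and SCD (0.049). IDI1 had a log2 change of 0.46 ± 0.07 for simvastatin against DMSO (SE; limma adjusted p = 0.00407), and its change of -0.27 ± 0.07 with mevalonate did not pass (limma adjusted p = 0.0532). It did in 4 of 17 alternatives: arrays centred on their medians, the filter on dim genes, trend and robust variance, and simvastatin replicate 1 left out (lowest adjusted p 0.00562). The nearest genes to LPCAT3 were WASHC5 (0.035), RND3 (0.037) and ARID1B (0.038), all of which fell with simvastatin and rose with mevalonate.

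The neighbours of the 5 genes along the genome were also read. FADS1, FADS2 and FADS3 are consecutive coding genes on chromosome 11, and in RefSeq FADS1 overlaps FADS2 on the other strand. FADS2, the delta-6 desaturase of the same pathway, had log2 signals of 7.54, 7.71 and 7.65 with simvastatin, against 7.12, 7.23 and 7.28 with DMSO. It rose by 0.42 ± 0.08 (SE; limma adjusted p = 0.00689), with all simvastatin arrays above all DMSO arrays. With mevalonate it fell by 0.38 relative to simvastatin (limma adjusted p = 0.0136). The probes' positions relative to the overlap were not known here, so signal common to both genes cannot be told apart. MIR1908, a microRNA gene inside FADS1, had a change of -0.04 ± 0.1 (SE; limma adjusted p = 0.846), and EMG1, which overlaps LPCAT3, had 0.13 ± 0.05 (SE; limma adjusted p = 0.178).

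Among the other genes of the pathway, 87 of those listed were measured. Of these 22 rose and 6 fell with simvastatin (32.2% changed, against 13.4% of all genes), and their median log2 change was 0.07, against 0.01 over all genes. With mevalonate added to simvastatin, 5 rose and 17 fell (25.3%, against 11% of all genes), with a median of -0.06, against 0 over all genes. These lists were picked with results of these data known, so these counts and those of each list below are a description. The 6 falls with simvastatin include 3 of the 10 measured oxidation genes, which are described again under the other observations. Counted with the 5 genes, 6 rose with mevalonate, and 2 to 3 when simvastatin replicate 1 or 2 or any 1 mevalonate array was left out.

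For acetyl-CoA supply, 1 of 7 other genes rose with simvastatin (5.98% of all genes rose): ACLY, which cleaves citrate to acetyl-CoA, by 0.26 ± 0.05 (SE; limma adjusted p = 0.0104). It fell by 0.3 with mevalonate (adjusted p = 0.00639). The other acetyl-CoA synthetases ACSS1 and ACSS3, both mitochondrial, did not pass. For fatty acid synthesis, ACACA had log2 signals of 9.96, 9.97 and 9.92 with simvastatin, against 9.5, 9.52 and 9.53 with DMSO, with no overlap. It rose by 0.44 ± 0.04 (SE; limma adjusted p = 0.000132) and fell by 0.31 with mevalonate. CBR4, a subunit of a reductase of mitochondrial fatty acid synthesis, fell by 0.42 ± 0.09 (SE; limma adjusted p = 0.0185), a call lost when DMSO replicate 1, DMSO replicate 2 or simvastatin replicate 2 was left out (adjusted p 0.0537 to 0.0634).

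For elongation, 3 of 10 genes rose with simvastatin, against 5.98% of all genes. ELOVL6, which lengthens palmitate to stearate, had log2 signals of 8.25, 8.26 and 8.22 with simvastatin, against 7.83, 7.8 and 7.85 with DMSO. These groups were far apart relative to their spread, and the rise was 0.42 ± 0.04 (SE; limma adjusted p = 0.000186). With mevalonate ELOVL6 fell by 0.33 (adjusted p = 0.000727). The other rises were HSD17B12, a reductase of the elongation cycle (0.29 ± 0.08 SE; limma adjusted p = 0.0384), and ELOVL5, an elongase of polyunsaturated chains singled out after its values were seen (0.17 ± 0.04 SE; limma adjusted p = 0.0272). The elongation count was 1 when replicate 1 or 2 of either DMSO or simvastatin was left out. HSD17B12 also lost its call when DMSO replicate 3 or mevalonate replicate 1 or 2 was left out (adjusted p up to 0.122). This gene was dim, at 5.13 to 5.38 with simvastatin and 4.91 to 5.04 with DMSO, near the median of all probesets (5.19).

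For desaturation, 3 of 6 genes beside SCD and FADS1 rose with simvastatin, against 5.98% of all genes. They were FADS2, FADS3 (0.44 ± 0.11 SE; limma adjusted p = 0.033) and CYB5B, a cytochrome b5 of the outer mitochondrial membrane (0.2 ± 0.05 SE; limma adjusted p = 0.0353). The count was 1 without DMSO replicate 3, simvastatin replicate 2 or 3, or replicate 2 of simvastatin plus mevalonate. FADS3 lost its call when replicate 2 or 3 of any group was left out (adjusted p 0.0537 to 0.108). CYB5B lost it when DMSO replicate 1 or 3, any simvastatin replicate or mevalonate replicate 2 was left out (adjusted p 0.0536 to 0.114). FADS3 was dim, at 4.88 to 5.29 with simvastatin and 4.62 to 4.81 with DMSO, near or below the median of all probesets (5.19). SCD5, the other stearoyl-CoA desaturase, did not pass (-0.17 ± 0.07 SE; limma adjusted p = 0.19). With mevalonate 1 of the 6 fell past the threshold, FADS2 (5.72% of all genes fell), and the count was 2 without simvastatin replicate 1.

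The list for acyl-CoA activation also holds ACBD3, which is not an acyl-CoA synthetase. In it, 3 of 7 genes rose with simvastatin (ACSL4, ACSL1 and ACBD3), against 5.98% of all genes, and each of them fell with mevalonate. ACSL4, the acyl-CoA synthetase that prefers arachidonate, rose by 0.49 ± 0.05 (SE; limma adjusted p = 0.00044) and fell by 0.45 with mevalonate (adjusted p = 0.000806). ACSL1, another long-chain acyl-CoA synthetase, rose by 0.28, and ACBD3, a Golgi protein with an acyl-CoA binding domain, by 0.29.

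The remodelling enzymes moved in both directions. Of 10 genes beside LPCAT3, 2 rose and 2 fell with simvastatin (of all genes 5.98% rose and 7.38% fell). LPCAT2, an acyltransferase that also makes platelet-activating factor, had log2 signals of 8.19, 8.14 and 8.07 with simvastatin, against 9.04, 9.1 and 8.99 with DMSO. All simvastatin arrays were lower, and the fall of 0.91 ± 0.05 (SE; limma adjusted p = 2.34e-05) was larger than that of LPCAT3. With mevalonate LPCAT2 rose by 0.86 (adjusted p = 3.31e-05). MBOAT1, an acyltransferase for lysophosphatidylethanolamine and lysophosphatidylserine, fell by 0.53 ± 0.08 (SE; limma adjusted p = 0.00382).

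LPCAT4 and LPCAT1 went up. LPCAT4, another lysophospholipid acyltransferase, had log2 signals of 7.58, 7.93 and 7.87 with simvastatin, against 7.25, 7.14 and 7.22 with DMSO, and rose by 0.59 ± 0.09 (SE; limma adjusted p = 0.00285). LPCAT1, known for saturated phosphatidylcholine in lung surfactant, had 7.95, 7.88 and 7.82 with simvastatin, against 7.54, 7.57 and 7.54 with DMSO, and rose by 0.33 ± 0.05 (SE; limma adjusted p = 0.00453). In both genes the simvastatin arrays lay above all DMSO arrays. LPCAT1 did not pass with mevalonate (-0.18; adjusted p = 0.0697). LPCAT4 fell by 0.38 (adjusted p = 0.0267) and MBOAT1 rose by 0.34 (adjusted p = 0.0345) with mevalonate. The LPCAT4 call was lost without simvastatin replicate 2 or 3 or mevalonate replicate 1 or 3 (adjusted p up to 0.0949). That of MBOAT1 was lost without any 1 array of the 2 groups (adjusted p 0.0524 to 0.112).

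For glycerolipid synthesis, 5 of 15 genes rose with simvastatin and none fell (of all genes 5.98% rose and 7.38% fell). DGAT2, which makes triglyceride, rose by 0.51 ± 0.05 (SE; limma adjusted p = 0.000483). LPIN1, a phosphatidate phosphatase, rose by 0.39 (adjusted p = 0.0039) and fell by 0.56 with mevalonate (adjusted p = 0.000719). CDS1 and CDS2, which make CDP-diacylglycerol, rose by 0.37 (adjusted p = 0.0361) and 0.34 (adjusted p = 0.00927). CDS1 was dim, at 4.24 to 4.45 with simvastatin and 3.9 to 4.14 with DMSO, below the median of all probesets (5.19). The fifth was SELENOI, an ethanolamine phosphotransferase singled out after its values were seen (0.19; adjusted p = 0.0321). The count was 3 without DMSO replicate 1, simvastatin replicate 1 or 2, or mevalonate replicate 1, and CDS1 lost its call there and when DMSO replicate 3 was left out (adjusted p 0.0606 to 0.117).

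Among regulators, 4 of 12 rose with simvastatin, against 5.98% of all genes. SREBF2, the SREBP gene tied mainly to cholesterol synthesis, had log2 signals of 9.24, 9.35 and 9.36 with simvastatin, against 8.7, 8.56 and 8.74 with DMSO. It rose by 0.65 ± 0.06 (SE; limma adjusted p = 0.000313), with separate groups. SREBF1, which encodes the SREBP tied mainly to fatty acid synthesis, had 6.23, 6.21 and 6.1 with simvastatin, against 6.36, 6.21 and 6.36 with DMSO. Its groups shared values, and its change of -0.13 ± 0.08 did not pass (SE; 95% interval -0.31 to 0.05; limma adjusted p = 0.365). INSIG1 and INSIG2, which hold SREBPs in the endoplasmic reticulum, rose by 0.55 and 0.3, and PPARD, a nuclear receptor for fatty acids, by 0.53. With mevalonate SREBF2, INSIG2 and PPARD fell, and INSIG1 did not pass (-0.16; adjusted p = 0.144).

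LXR targets gave no change beyond LPCAT3. Of the 4 other measured genes none passed with limma (0 also with trend and robust variance), and 1 (PLTP, 0.2, a phospholipid transfer protein) had an unadjusted p under 0.05. In the comparison of simvastatin plus mevalonate with DMSO, 0 of the 92 measured pathway genes passed with limma, 19 had an unadjusted p under 0.05, and 6 higher and 1 lower passed when the variance was modelled with a trend and robustly.

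**Figure D3:**
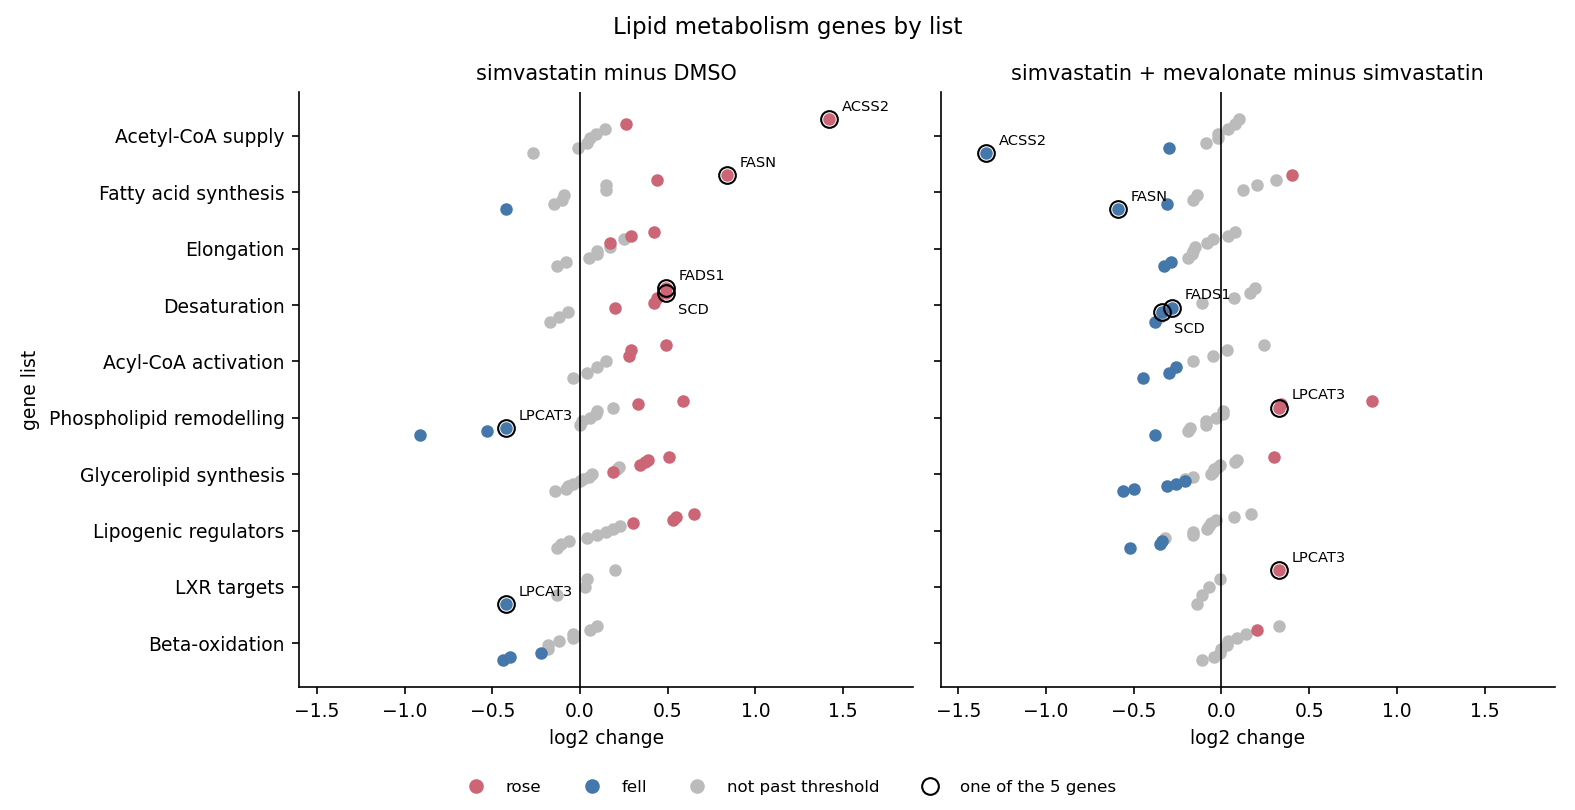
Log2 change of every measured gene of the 10 lists, 1 row per list, for simvastatin against DMSO (left) and simvastatin plus mevalonate against simvastatin (right). Red points rose, blue points fell, grey points did not pass, and black rings mark the 5 genes. On the left panel SREBF2 (0.65) and LPCAT4 (0.59) lie furthest to the right after ACSS2 and FASN, and the remodelling row spreads to both sides, down to -0.91 for LPCAT2.

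**Figure D4:**
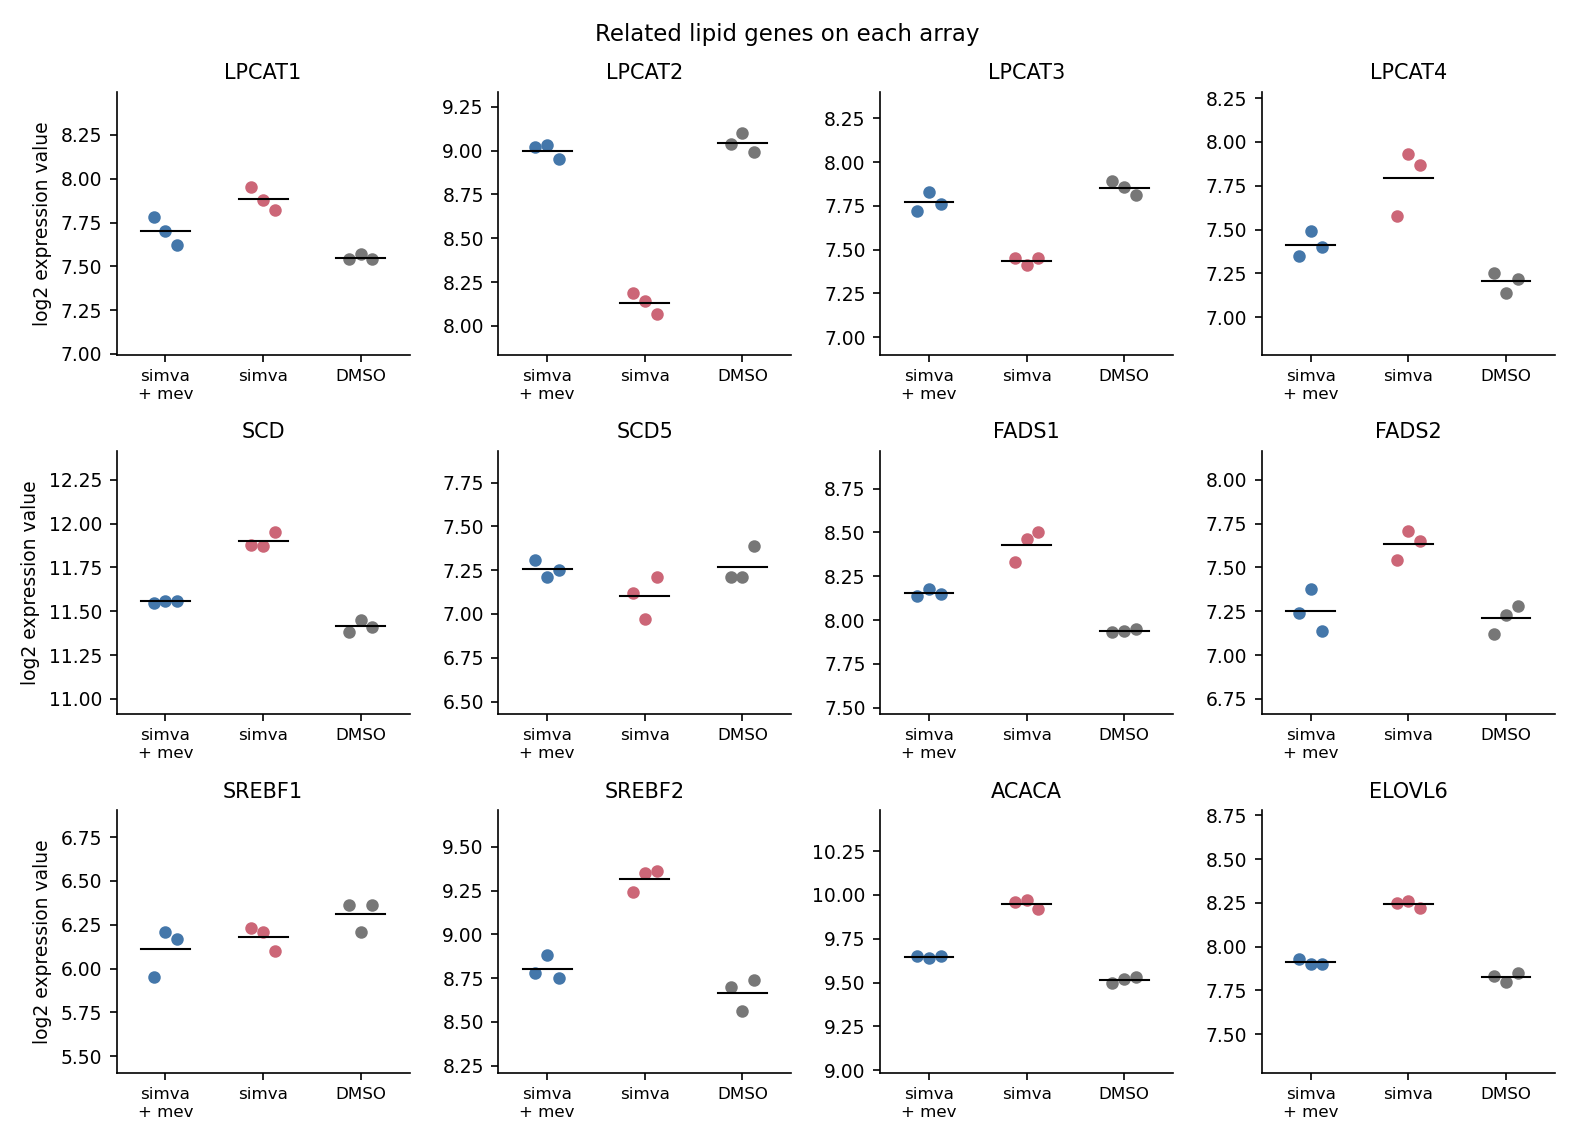
Log2 signal on each array (points) for SCD, FADS1, LPCAT3 and related genes, 1 panel per gene, for simvastatin plus mevalonate (simva + mev), simvastatin (simva) and DMSO, with the line at the group mean. LPCAT2 and LPCAT3 are lower and LPCAT1 and LPCAT4 higher with simvastatin than with DMSO, and SREBF2 is higher while the SREBF1 arrays of these groups overlap.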

How the data were processed

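Gene expression was measured on 9 one-channel arrays. The deposited values are log2 signals per probeset made by the authors. Per the submitters' processing notes GCRMA and HOMER were used, with versions and roles not given. Settings and the probes' genome build are not given in the sources used here. Scaling to a common distribution hides a change shared by all genes. Probesets were named through the platform annotation (16098 of 53617, 30%), and the brightest probeset by mean over all arrays stood for each of 14884 genes.

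Groups were compared by limma 3.58.1, under R 4.3.3, by linear models with moderated variance in 1 fit of all 9 arrays (6 residual degrees of freedom), with Benjamini-Hochberg adjustment over all genes and a threshold of 0.05. No filter on low values was used, so all 5 genes were tested. The number of arrays limits precision. Alternatives changed the normalization, probeset choice, filter, variance model, arrays and replicate block.

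The 5 genes and the lists were chosen with earlier results of these data known. Genes named beside them were the 4 of each list with the largest absolute change with simvastatin, the 3 nearest in values to each gene, and HMGCS1. Exceptions are said to be singled out after their values were seen.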

Additional observations from a re-analysis of the deposited data

How the results depend on the processing

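The 10 changes called in the 5 genes kept direction and call in each of the 17 alternatives (170 of 170 results). For simvastatin against DMSO, ACSS2 ran from 1.37 to 1.52 and LPCAT3 from -0.44 to -0.4. The limma adjusted p of the 10 changes was at most 0.0389 (FADS1, mevalonate added). With trend and robust variance, FASN (0.25), SCD (0.14) and FADS1 (0.22) passed against DMSO with mevalonate present. With all probesets fitted, changed genes numbered 1177 for simvastatin against DMSO (1988 in the report's fit), 922 for mevalonate added (1642) and 1 for simvastatin plus mevalonate against DMSO, where the filter gave 105, trend and robust variance 223, only the groups compared 0, the replicate block 0, and 1 array left out 0 to 12 (0 without any DMSO array or mevalonate replicate 1, 2 without mevalonate replicate 2, 3 without mevalonate replicate 3), against 11. Pathway genes lower with simvastatin numbered 4 with all probesets and 4 with only the groups compared, against 7. Those higher with mevalonate added numbered 2 with all probesets, 3 with only the groups compared and 2 to 6 with 1 array left out, against 6. Against DMSO, the filter gave 2 higher and 1 lower, and trend and robust variance 6 and 1. The causes of these differences were not tested. Refits that leave arrays out also rest on fewer arrays. Replicate numbers did not pair the arrays: same-numbered deviations correlated at -0.08 to 0.05, 1 of 9 arrays correlated best with its own number, and the replicate block left ACSS2 at 1.42. Dim probesets and 3 arrays a group limit precision.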

Other observations

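Fatty acid oxidation breaks fatty acids down in mitochondria and peroxisomes. Of 10 measured genes of this pathway 3 fell with simvastatin, none rose and 7 did not pass (7.38% of all genes fell), with a median log2 change of -0.15, against 0.01 over all genes. CPT1A, which admits long-chain acyl groups to mitochondria, had log2 signals of 8.28, 8.27 and 8.29 with simvastatin, against 8.63, 8.69 and 8.72 with DMSO, and fell by 0.4 ± 0.06 (SE; limma adjusted p = 0.002). CPT2, its partner in the inner membrane (-0.44; limma adjusted p = 0.0491), and ACAA2, a mitochondrial thiolase (-0.22; limma adjusted p = 0.0234), also passed. The count was 1 without DMSO replicate 3 or simvastatin replicate 3. CPT2 lost its call when DMSO replicate 1 or 3, simvastatin replicate 1 or 3 or any mevalonate replicate was left out (adjusted p 0.0643 to 0.145). ACAA2 lost its call when DMSO replicate 2 or 3 or simvastatin replicate 3 was left out (adjusted p 0.062 to 0.0809). Over all 17 alternatives the call was lost in 12 for CPT2 and in 6 for ACAA2. For CPT2 these included the mean over the probesets of each gene, and its change ran from -0.52 to -0.23.

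With mevalonate added to simvastatin, ACAA2 rose by 0.2 (limma adjusted p = 0.0366), a call lost when any 1 array except DMSO replicate 3 was left out (adjusted p 0.0505 to 0.112). CPT2 had a change of 0.33 that did not pass (limma adjusted p = 0.14). CPT1A did not pass either. Its log2 signals were 8.24, 8.38 and 8.17 with simvastatin plus mevalonate, so the groups with and without mevalonate overlapped and differed by -0.01 (95% interval -0.14 to 0.11; limma adjusted p = 0.904). Against DMSO the level with simvastatin plus mevalonate was lower by a log2 change of -0.42 (limma adjusted p = 0.0565, and 0.00313 with trend and robust variance). Whether this differs from the return of the other genes was not tested.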
